A study of Mus musculus with 6 samples.

Results

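The cytosolic ribosomal proteins are the protein parts of the ribosome that translates nuclear mRNA. They were taken here as every probe whose symbol in the array annotation begins with Rpl or Rps and a digit, or is Rplp0, Rplp1, Rplp2 or Rpsa, leaving out the S6 kinases (Rps6k genes). The rule found 96 of 45281 probes, for 65 of the 19057 genes that the annotation names. By symbol, 58 probes (38 genes) belonged to the large subunit and 38 probes (27 genes) to the small subunit. The symbol rule also takes in Rps19bp1, Rps23rg1 and Rpl7l1, which are not structural parts of the mature ribosome.

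The arrays profiled splenic CD11b+Gr-1high cells of female BALB/c mice, for which the labels name no engineered allele. The G-CSF group (2 arrays) was treated with recombinant granulocyte colony-stimulating factor, the cytokine that drives neutrophil production. The 4T1-TB group (2 arrays) bore tumors of 4T1, a mammary carcinoma line. The WT group (2 arrays) was the non-tumor-bearing control. Cells were sorted in 2 independent experiments, and the study's methods call the 2 samples of a group biologic replicates. The labels do not say how many mice went into a sample. The p-values measure the spread between 2 samples a group, which may be technical in part. In sorted bulk samples, fewer cells of a type and less RNA per cell cannot be told apart.

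Each ribosome has a small subunit, which holds the mRNA and decodes it, and a large subunit, which forms peptide bonds. Mammalian mRNAs of ribosomal proteins usually begin with a C followed by an unbroken run of pyrimidines, the 5′ terminal oligopyrimidine tract, through which mTORC1 controls their translation. Maturing neutrophils condense the nucleus and reduce ribosome production, so ribosomal protein mRNAs are usually more abundant in immature than in mature granulocytes.

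The start regions of members that the results turn on are shown, because the tract is the sequence feature the family is known for. They are 30 bases around the annotated RefSeq start (GRCm38.p6), 15 before it and 15 from it on, and capitals mark runs of a C followed by at least 4 pyrimidines. In Rpl38, Rps6 and Rpl35 the annotated start base is a C followed by at least 4 pyrimidines. In Rps9 and Rpl39 a marked run covers the start base, which is a T, and in Rps26, Rps7 and Rpl9 no run covers it.
Rpl38, chr11:114668565-114668594, plus strand: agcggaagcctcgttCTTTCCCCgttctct
Rps6, chr4:86857353-86857382, minus strand: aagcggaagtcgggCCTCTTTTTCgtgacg
Rpl35, chr2:39005117-39005146, minus strand: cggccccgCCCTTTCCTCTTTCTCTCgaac
Rps9, chr7:3704026-3704055, plus strand: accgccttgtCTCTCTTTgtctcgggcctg
Rps26, chr10:128626492-128626521, minus strand: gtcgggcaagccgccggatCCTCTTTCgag
Rpl39, chrX:37085208-37085237, minus strand: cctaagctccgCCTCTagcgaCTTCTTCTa
Rps7, chr12:28635939-28635968, minus strand: gCTTCCggtttccacccacctaCTTCCgct
Rpl9, chr5:65391417-65391446, minus strand: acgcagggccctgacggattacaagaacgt

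In the RefSeq promoter windows of 300 bases, 54 of the 65 member genes matched, with 64 windows. The annotated start base was a C followed by at least 4 pyrimidines in 9 of 64 member windows (14.1%) and in 2.51% of all 32851 windows. Within 15 bases of the start, such a run lay in 59.4% of member windows and in 36.4% of all windows. The motif CTTCCG, the core that ETS factors bind, was read on both strands and lay in 62.5% of member windows and in 16.9% of all windows. The motif TCTCGCGA was read on the strand of the gene only and lay in 12.5% of member windows and in 0.734% of all windows. Of the members whose start base opens such a run, Rpl38 was called higher in 4T1-TB cells, while Rps6 read lower there. A match describes the letters of the window only.

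Of the 96 probes, 46 (41 genes) were detected on all 6 arrays at a detection p under 0.05, 27 on 1 to 5 arrays, and 23 on none. At least 1 detected probe was found for 56 genes, and 9 genes had none. The number of detected members per array was 62 and 63 in G-CSF cells, 63 and 60 in 4T1-TB cells, and 55 and 52 in WT cells. Over all probes, the number was 9488 and 10036 in G-CSF cells, 9533 and 8568 in 4T1-TB cells, and 9175 and 7421 in WT cells. Members held 1.39% and 1.51% of the summed intensity of all probes in G-CSF cells, 1.43% and 1.36% in 4T1-TB cells, and 1.10% and 0.877% in WT cells. Both treated groups lay above WT, although 2 arrays against 2 cannot reach a two-sided exact permutation p below 0.333. After the lowest intensity of each array was subtracted, the shares were 2.08% and 2.42% in G-CSF cells, 2.25% and 2.34% in 4T1-TB cells, and 2.07% and 1.80% in WT cells.

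The arrays differed both within and between the groups. The 2 G-CSF arrays differed by more than 1 log2 unit on 1.93% of all probes, the 2 4T1-TB arrays on 0.252%, and the 2 WT arrays on none. The sums that follow, here and for the myeloid markers, are of intensities before normalization. Over all probes these came to 11296635 and 9317616.4 in G-CSF cells, 10341475 and 8402724.5 in 4T1-TB cells, and 7397898.9 and 7134329.7 in WT cells. A sum therefore also carries the brightness of its array. Every treated array had a larger sum than both WT arrays, so brightness and treatment cannot be told apart. The 10 measured erythroid markers, 2 of them undetected on all arrays, had summed intensities from 3639 to 66141 in G-CSF cells, from 1532 to 70257 in 4T1-TB cells, and from 2092 to 2789 in WT cells. Slc4a1 (the red cell anion exchanger) stood at 12.24 and 6.88 log2 units in G-CSF cells, 11.58 and 6.91 in 4T1-TB cells, and 6.98 and 7.13 in WT cells. The high arrays were replicate 1 of G-CSF and of 4T1-TB. The 10 T cell markers, 5 of them undetected throughout, summed to between 3383 and 4545 in G-CSF cells, 3739 and 4088 in 4T1-TB cells, and 1532 and 1582 in WT cells, and the 9 B cell markers to between 1064 and 1981, 1072 and 1487, and 1129 and 1159 in the same order of groups. In limma, 0 erythroid, T cell or B cell markers were called in either comparison with WT. Median log2 fold changes in G-CSF and in 4T1-TB cells were 0.45 and 0.67 for erythroid, 0.11 and 0.06 for T cell, and 0.07 and 0.02 for B cell markers. The part of these cells in the results was not tested.

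Markers of the myeloid cells themselves also differed between the groups, though their sums again carry the brightness of the arrays. Of the 13 measured granulocyte markers, 10 or 11 were detected on each G-CSF array, 11 on each 4T1-TB array and 12 on each WT array, and 1 on none. Their sums ran from 66453 to 95390 in G-CSF cells, from 77795 to 90443 in 4T1-TB cells, and from 41380 to 52681 in WT cells, whereas their median log2 fold change was −0.48 in G-CSF cells (0 higher, 3 lower) and −0.20 in 4T1-TB cells (1 higher, 3 lower). Itgam, which encodes CD11b, was detected on the WT arrays alone, with G-CSF and 4T1-TB cells at least 1.78-fold and 1.77-fold lower (adjusted p = 0.0086 and 0.0077). The 11 macrophage or monocyte markers summed to between 1750 and 1789 in G-CSF cells, 1365 and 1728 in 4T1-TB cells, and 1886 and 2137 in WT cells, with 0 higher and 4 lower in each comparison with WT. The 7 promyelocyte markers summed to between 1080 and 1485 in G-CSF cells, 1384 and 2450 in 4T1-TB cells, and 870 and 941 in WT cells, with 0 called in G-CSF cells and 1 higher in 4T1-TB cells. The 22 proliferation genes, 9 of them undetected throughout, summed to between 3272 and 4936 in G-CSF cells, 4307 and 6919 in 4T1-TB cells, and 2733 and 2960 in WT cells, with 0 called in G-CSF cells and 4 higher in 4T1-TB cells. The part of cell maturity or division in the results was not tested.

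Few ribosomal protein probes passed the test in G-CSF cells. In the limma fit of all 6 arrays and all probes, at a Benjamini-Hochberg adjusted p under 0.05, 4 of 96 members were higher in G-CSF cells than in WT, against 2.22% of all probes, and 3 were lower, against 2.31% of all probes. In 4T1-TB cells, 9 members were higher than in WT cells, against 2.93% of all probes, and 4 were lower, against 2.56%. All 4 probes that rose in G-CSF cells were among the 9 that rose in 4T1-TB cells, and 2 of the 3 that fell were among the 4, although both comparisons share the WT arrays. In a fit with the replicate number as a block, 0 members were higher and 3 lower in G-CSF cells, and 8 higher and 4 lower in 4T1-TB cells. Without WT replicate 1 or WT replicate 2, no member was called in G-CSF cells, and 1 was higher and 0 lower in 4T1-TB cells. Without 4T1-TB replicate 1, 3 members were higher and 1 lower in 4T1-TB cells, and without replicate 2, 1 and 1.

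By the rule named in the study's methods, a 2-fold change or more together with P under 0.01 before adjustment, 2 members were higher (1.32% of all probes) and 4 lower (1.56%) in G-CSF cells. In 4T1-TB cells, 7 were higher (1.76%) and 3 lower (1.75%). With arrays centred on the median in place of quantile normalization, the split by the same rule was 19 higher and 1 lower in G-CSF cells and 20 higher and 0 lower in 4T1-TB cells, while adjusted calls fell to 1 higher and 0 lower and to 0 and 0. The split between higher and lower members therefore depended on the scaling.

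The 2 groups did not overlap, with G-CSF higher, on 36 members (22.4% of all probes) and, with G-CSF lower, on 12 (19.1%). With 4T1-TB cells the counts were 47 higher (23.8%) and 24 lower (21%). The median log2 fold change over the members was 0.05 in G-CSF cells and 0.07 in 4T1-TB cells, and 0.00 over all probes in both. Among probes detected on all 6 arrays, it was 0.21 for 46 members and 0.24 for all 4239 probes in G-CSF cells, and 0.64 and 0.26 in 4T1-TB cells.

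**Figure D1:**
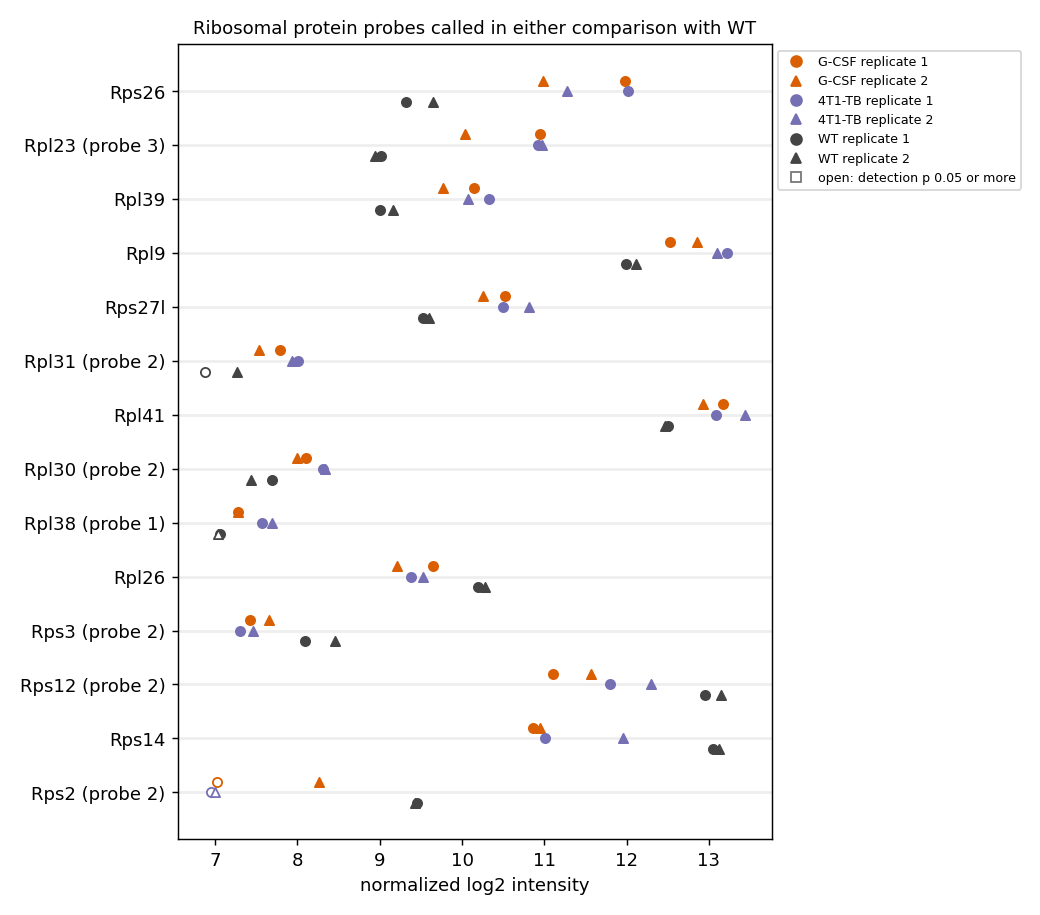
Normalized log2 intensity (horizontal axis) of the 14 ribosomal protein probes called in either comparison with WT, ordered by their 4T1-TB fold change, on each of the 6 arrays (circles, replicate 1; triangles, replicate 2; open symbols, detection p of 0.05 or more). The 9 upper probes lie to the right of WT on every G-CSF and 4T1-TB array, and the 5 lower probes to the left.

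Among large-subunit proteins, the largest called increase was that of Rpl23, which can also bind Mdm2. Its probe 3 read 10.95 and 10.04 log2 units in G-CSF cells, 10.93 and 10.98 in 4T1-TB cells, and 9.02 and 8.95 in WT cells. Neither treated group overlapped WT, and the lowest G-CSF array lay above the highest WT array by about 1 unit. The log2 fold change was 1.51 in G-CSF cells (SE 0.28, adjusted p = 0.047) and 1.97 in 4T1-TB cells (SE 0.28, adjusted p = 0.018).

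Rpl23 was also read by 3 other probes. Probe 4 stood at 12.60 and 11.87 in G-CSF cells, 12.27 and 12.82 in 4T1-TB cells, and 13.42 and 13.52 in WT cells, which is the opposite order. Its log2 fold changes were −1.23 (adjusted p = 0.089) and −0.92 (adjusted p = 0.19), neither past the threshold. Probe 2 was detected on 1 array. Probe 1 was detected on every G-CSF and 4T1-TB array and on no WT array, the order of probe 3, and was not called. As probe 4 read in the opposite order, the gene has no single direction in these data.

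Rpl9, a large-subunit protein, read 12.53 and 12.86 in G-CSF cells, 13.22 and 13.10 in 4T1-TB cells, and 11.99 and 12.11 in WT cells. All 3 groups were separate, with G-CSF between the others. The log2 fold change was 0.64 in G-CSF cells (SE 0.12, adjusted p = 0.048) and 1.11 in 4T1-TB cells (SE 0.12, adjusted p = 0.0077). The direct difference of 4T1-TB over G-CSF was 0.46, with an unadjusted p of 0.0094 in limma that did not pass after adjustment.

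Rpl39, a very small protein at the wall of the exit tunnel, read 10.15 and 9.77 in G-CSF cells, 10.32 and 10.07 in 4T1-TB cells, and 9.01 and 9.16 in WT cells. Its log2 fold changes were 0.87 (SE 0.15, adjusted p = 0.037) and 1.11 (SE 0.15, adjusted p = 0.015). All 4 treated arrays exceeded both WT arrays. The probe of its paralog Rpl39l, a form enriched in mouse testis, was detected on 1 array, a WT one.

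4 further large-subunit probes rose in 4T1-TB cells and missed the threshold in G-CSF cells, and none of them passed after adjustment in the direct test of 4T1-TB against G-CSF cells. Rpl41, a very short basic peptide, read 13.17 and 12.93 in G-CSF cells, 13.08 and 13.43 in 4T1-TB cells, and 12.50 and 12.46 in WT cells. Rpl30, in its probe 2, averaged 8.05 ± 0.07 in G-CSF cells, 8.32 ± 0.03 in 4T1-TB cells, and 7.56 ± 0.18 in WT cells (SD, n = 2 each). All the treated arrays were above WT for both. The log2 fold changes in 4T1-TB cells were 0.78 (adjusted p = 0.035) and 0.76 (adjusted p = 0.012), and in G-CSF cells 0.57 (adjusted p = 0.11) and 0.49 (adjusted p = 0.057).

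Rpl31, which sits near the exit of the tunnel, had log2 fold changes in 4T1-TB cells of 0.90 on probe 2 (adjusted p = 0.030) and 0.89 on probe 3 (adjusted p = 0.20), and its probe 1, undetected in WT cells, was at least 1.56-fold higher (adjusted p = 0.093). Probe 2 read 7.79 and 7.53 in G-CSF cells, 8.01 and 7.93 in 4T1-TB cells, and 6.88 and 7.27 in WT cells, with WT replicate 1 undetected. Rpl38, which in mouse is needed for translation of a subset of Hox mRNAs, had the smallest adjusted p of any member (0.0068) in its dim probe 1, at 7.28 and 7.28 in G-CSF cells, 7.57 and 7.70 in 4T1-TB cells, and 7.05 and 7.04 in WT cells, with WT replicate 2 undetected. Its bright probe 2 read 13.25 and 12.33 in G-CSF cells, 13.17 and 13.14 in 4T1-TB cells, and 11.66 and 11.80 in WT cells. That probe gave larger log2 fold changes, 1.06 (adjusted p = 0.14) and 1.42 (adjusted p = 0.051), with a wider SE of 0.28.

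Among small-subunit proteins, Rps26, which lies at the mRNA exit, had the largest fold change of the higher calls. It read 11.98 and 10.99 in G-CSF cells, 12.01 and 11.28 in 4T1-TB cells, and 9.32 and 9.64 in WT cells. The treated arrays were all at least 1 unit above WT, and in both treated groups replicate 1 was the higher one. The log2 fold change was 2.00 in G-CSF cells (SE 0.38, adjusted p = 0.053) and 2.16 in 4T1-TB cells (SE 0.38, adjusted p = 0.036).

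Rps27l, a p53-inducible paralog of Rps27, read 10.52 and 10.25 in G-CSF cells, 10.49 and 10.82 in 4T1-TB cells, and 9.52 and 9.60 in WT cells. Its log2 fold changes were 0.83 (SE 0.14, adjusted p = 0.032) and 1.10 (SE 0.14, adjusted p = 0.012). Both treated groups lay above WT. Of 11 measured genes of the Mdm2 and p53 response, 1 was higher and 2 lower in G-CSF cells and 2 each way in 4T1-TB cells. Ccng1, a p53 target, rose, with log2 fold changes of 1.19 (adjusted p = 0.049) and 1.59 (adjusted p = 0.017), whereas Sesn2 and Pmaip1 were detected on the WT arrays alone. G-CSF and 4T1-TB cells lay below WT at least 2.13-fold and 2.11-fold for Sesn2 and at least 1.59-fold and 1.57-fold for Pmaip1, with adjusted p-values from 0.0038 to 0.0071.

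The strongest called decrease in G-CSF cells was that of Rps14, a small-subunit protein whose loss of 1 copy in humans accompanies the anemia of the 5q- syndrome. It read 10.86 and 10.95 in G-CSF cells, 11.01 and 11.96 in 4T1-TB cells, and 13.05 and 13.12 in WT cells. All treated arrays were more than 1 unit below WT. The log2 fold change was −2.18 in G-CSF cells (SE 0.29, adjusted p = 0.015) and −1.60 in 4T1-TB cells (SE 0.29, adjusted p = 0.038).

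Rps12, a small-subunit protein, was read by 2 bright probes with fold changes of opposite sign. Probe 2 read 11.10 and 11.56 in G-CSF cells, 11.80 and 12.30 in 4T1-TB cells, and 12.95 and 13.15 in WT cells, and it fell by 1.72 on the log2 scale in G-CSF cells (SE 0.22, adjusted p = 0.013). Probe 1 read 12.34 and 11.51 in G-CSF cells, 11.81 and 12.43 in 4T1-TB cells, and 11.32 and 11.13 in WT cells, with log2 fold changes of 0.70 and 0.90 that did not pass (adjusted p = 0.46 and 0.27). Every treated array was below WT on one probe and above it on the other.

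Rpl26, a large-subunit protein that in human cells can bind p53 mRNA, had log2 fold changes of −0.80 in G-CSF cells (SE 0.15, adjusted p = 0.048) and −0.78 in 4T1-TB cells (SE 0.15, adjusted p = 0.046), but with median or 75th-percentile centring it turned to increases between 0.51 and 0.75. It read 9.65 and 9.21 in G-CSF cells, 9.38 and 9.53 in 4T1-TB cells, and 10.19 and 10.28 in WT cells. The treated arrays were all below WT on the quantile-normalized scale.

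Rps2 and Rps3, at the mRNA entry side of the small subunit, each had 1 probe that fell in 4T1-TB cells. Probe 2 of Rps2 read 7.02 and 8.27 in G-CSF cells, 6.94 and 6.99 in 4T1-TB cells, and 9.46 and 9.42 in WT cells. It was undetected on both 4T1-TB arrays and at least 5.26-fold lower there than in WT cells (adjusted p = 0.022), taking for each array without a detected value the lowest detected signal of that array. Probe 1 of Rps2 read 10.83 and 10.27 in G-CSF cells, 10.74 and 10.81 in 4T1-TB cells, and 11.08 and 10.81 in WT cells, with log2 fold changes of −0.39 and −0.17 that did not pass and turned positive with either centring. Probe 2 of Rps3 read 7.43 and 7.65 in G-CSF cells, 7.31 and 7.46 in 4T1-TB cells, and 8.09 and 8.46 in WT cells. Its log2 fold changes were −0.74 (adjusted p = 0.057) and −0.89 (adjusted p = 0.027), and that of G-CSF cells was 0.01 with median centring.

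Across the 10 genes with at least 2 probes detected on 2 or more arrays, the signs of the probes differed for 3 genes (Rpl23, Rpl27a and Rps12) in G-CSF cells and for 2 (Rpl23 and Rps12) in 4T1-TB cells. Ribosomal protein genes have many near-identical processed copies in the genome, so a probe may also read such copies, and the contribution of these was not tested.

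**Figure D2:**
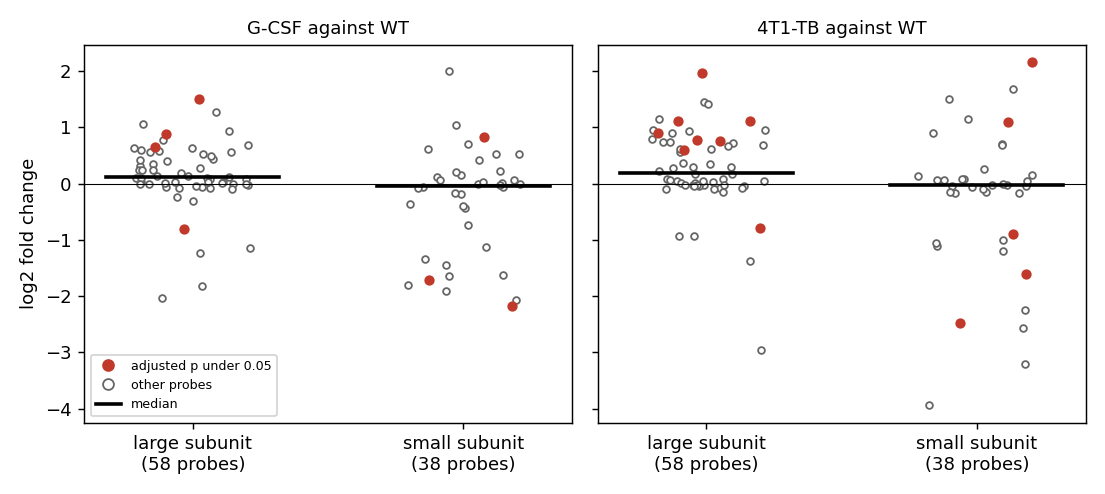
Log2 fold change (vertical axis) of each of the 58 large-subunit and 38 small-subunit probes in G-CSF cells (left) and 4T1-TB cells (right) against WT. Red points passed at an adjusted p under 0.05 and bars mark the medians, which are 0.12 and −0.04 in G-CSF cells and 0.19 and −0.03 in 4T1-TB cells for the large and the small subunit.

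In G-CSF cells, 40 of 58 large-subunit probes and 16 of 38 small-subunit probes had fold changes above 0, and the same numbers held in 4T1-TB cells. Changes of −1 or less occurred on 10 of 38 small-subunit probes in each comparison. On large-subunit probes they occurred on 4 of 58 in G-CSF cells and 2 of 58 in 4T1-TB cells. Over all probes, such changes made up 1.97% in G-CSF and 2.23% in 4T1-TB cells, and changes above 0 made up 51.3% and 50.7%. These counts also moved: with median centring the small-subunit ones were 2 and 5, and the large-subunit ones 1 and 1. Without G-CSF replicate 1, the counts in G-CSF cells were 3 for the small and 2 for the large subunit. The difference between subunits was not tested. The small-subunit median, −0.04 and −0.03, turned to 0.02 and 0.08 with median centring and to 0.05 in G-CSF cells without G-CSF replicate 1. The large-subunit median was 0.43 and 0.39 with median centring and 0.13 in G-CSF cells without G-CSF replicate 1. It stayed above the small-subunit median in each of these settings.

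The widest spread of the family lay between the 2 G-CSF arrays. They differed by more than 1 log2 unit on 24 of 96 members (25%), and neither the 2 4T1-TB arrays nor the 2 WT arrays differed by that much on any member. Among probes detected on at least 2 arrays, the G-CSF arrays differed by that much on 36.4% of members and 7.56% of all probes. Replicate 2 was the higher G-CSF array on 18 of the 24 probes (17 genes, 11 small-subunit and 7 large-subunit probes), by 1.11 to 5.85 units, and replicate 1 on 6 probes, by 1.08 to 1.60 units. On 14 of the 18, replicate 2 was the array nearer to the WT mean.

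**Figure D3:**
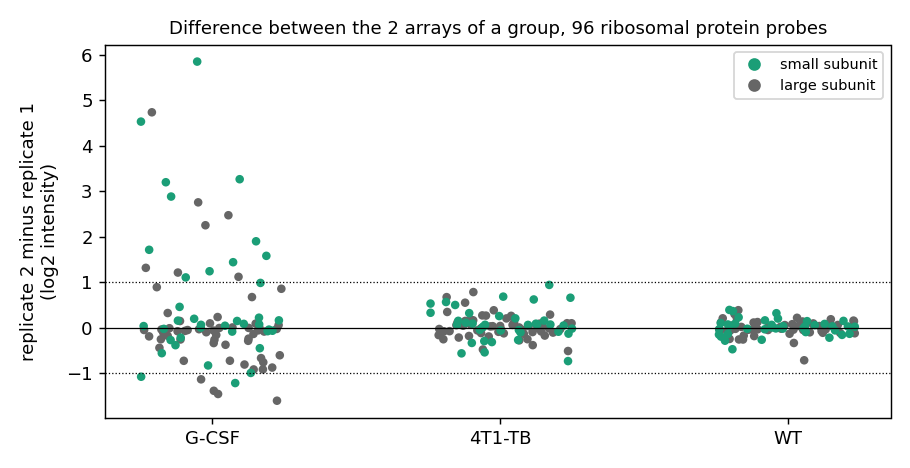
Replicate 2 minus replicate 1 in log2 intensity (vertical axis) for the 96 ribosomal protein probes in G-CSF, 4T1-TB and WT cells, with small-subunit and large-subunit probes in different colours and dotted lines at 1 and −1. The G-CSF points reach 5.85 whereas those of 4T1-TB and WT cells stay within 0.94 and 0.71 of 0.

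Rps9, a small-subunit protein at the mRNA entry, gave the largest gap. Its probe 1 read 8.42 and 14.27 in G-CSF cells, 10.98 and 11.05 in 4T1-TB cells, and 13.20 and 13.31 in WT cells. Its probe 2 read 7.13 and 11.66 in G-CSF cells, 7.41 and 7.62 in 4T1-TB cells, and 11.44 and 11.48 in WT cells. On both probes G-CSF replicate 1 lay below 4T1-TB and replicate 2 above WT, so the G-CSF arrays enclosed both other groups.

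Rps6, the ribosomal substrate of the S6 kinases, read 6.96 and 10.22 in G-CSF cells, 7.16 and 7.14 in 4T1-TB cells, and 9.64 and 9.78 in WT cells. Rps7, a small-subunit protein that can bind Mdm2, read 6.93 and 10.14 in G-CSF cells, 6.90 and 7.01 in 4T1-TB cells, and 10.15 and 10.18 in WT cells. Rpl27, a large-subunit protein, read 6.98 and 9.74 in G-CSF cells, 7.19 and 7.24 in 4T1-TB cells, and 10.20 and 10.16 in WT cells. On all 3 probes G-CSF replicate 1 was undetected, G-CSF replicate 2 lay far closer to WT than to 4T1-TB cells, and both 4T1-TB arrays were more than 2 units below WT.

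Rplp1, an acidic protein of the stalk that recruits elongation factors, read 8.60 and 13.34 in G-CSF cells, 11.93 and 12.20 in 4T1-TB cells, and 13.03 and 12.97 in WT cells. Rpl24, at the interface of the subunits, read 7.09 and 9.35 in G-CSF cells, 8.62 and 8.46 in 4T1-TB cells, and 8.46 and 8.59 in WT cells. 4T1-TB cells were below WT on Rplp1 and overlapped WT on Rpl24. The other stalk probes did not share the gap: Rplp2, in its probe 1, read 10.92 and 10.16 in G-CSF cells, 10.55 and 10.73 in 4T1-TB cells, and 9.96 and 9.85 in WT cells.

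**Figure D4:**
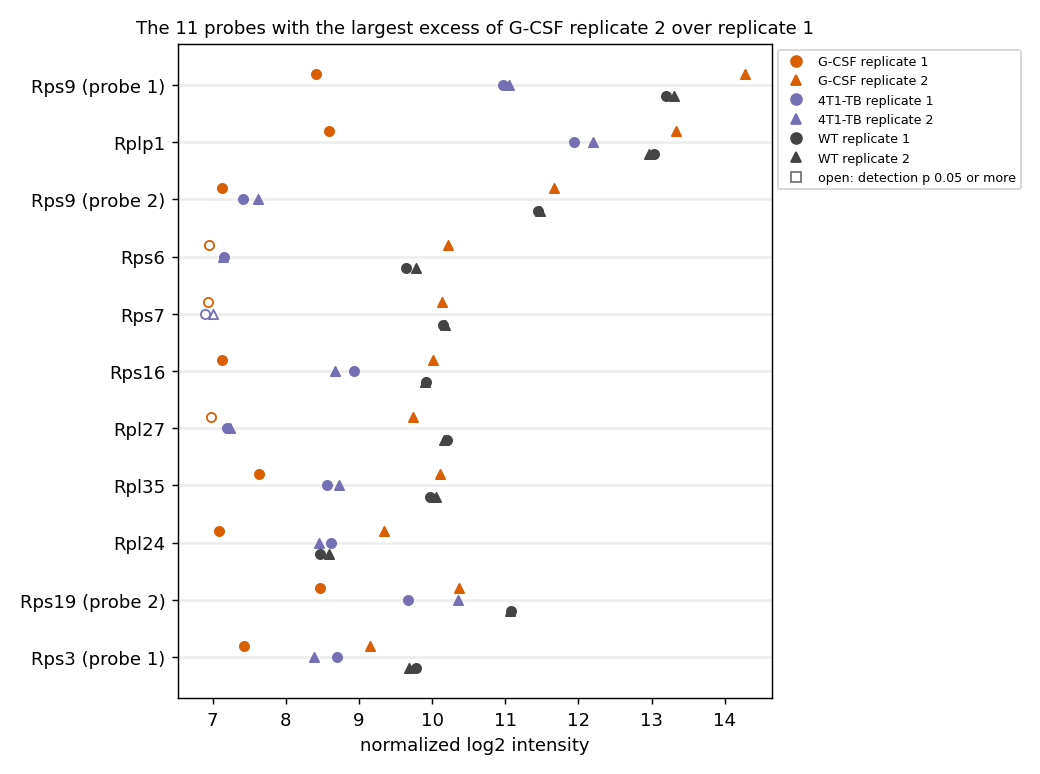
Normalized log2 intensity (horizontal axis) of the 11 ribosomal protein probes with the largest excess of G-CSF replicate 2 over G-CSF replicate 1, on each of the 6 arrays (circles, replicate 1; triangles, replicate 2; open symbols, detection p of 0.05 or more). G-CSF replicate 1 is the lowest or among the lowest arrays on each probe, while the 2 4T1-TB arrays and the 2 WT arrays lie close together, with gaps of at most 0.94 and 0.71.

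None of these probes passed in the fit of all 6 arrays, whose spread is shared by the 3 groups. In 4T1-TB cells the log2 fold change of Rps9 probe 2 was −3.94 with an SE of 1.36 (adjusted p = 0.25), that of Rps6 −2.56 with an SE of 0.98 (adjusted p = 0.32), and that of Rpl27 −2.96 with an SE of 0.83 (adjusted p = 0.15). Rps7 was undetected on both 4T1-TB arrays and at least 8.70-fold lower there than in WT cells (adjusted p = 0.18).

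In limma on the 4 arrays of 4T1-TB and WT cells alone, 30 members were higher in 4T1-TB cells, against 6.72% of all probes, and 16 were lower, against 4.6%. The adjusted p-values of that fit were 4.31e-06 for Rps7, Rpl27 and Rps9 probe 2, 7.51e-06 for Rps6, 1.09e-05 for Rps9 probe 1 and 0.0012 for Rplp1. The lower probes also included Rps16 (−1.11), Rps19 probe 2 (−1.06) and Rpl35 (−1.37), and the higher ones Rps4x (1.69), Rps24 probe 4 (1.50), Rpl12 (1.45) and Rpl38 probe 2 (1.42). Rps16 and Rps19, but not Rpl35 in this comparison, turned to small increases with either centring, and Rps19 carries mutations in human Diamond-Blackfan anemia.

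Without G-CSF replicate 1, 14 members were higher in the remaining G-CSF array than in WT cells (3.78% of all probes) and 7 lower (2.85%). Without G-CSF replicate 2, 27 were higher (6.74%) and 20 lower (4.5%). In both fits the lone G-CSF array is assumed to vary like the other groups. Rps9 probe 1 was 1.01 log2 units higher than WT without replicate 1 (adjusted p = 0.0011) and Rps6 0.51 higher (adjusted p = 0.019), whereas Rps7 stood at −0.03 (adjusted p = 0.96).

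The erythroid markers also differed between the 2 G-CSF arrays, by up to 5.37 log2 units (Slc4a1). Between the 2 4T1-TB arrays they differed by up to 7.11 units (Hba-a1), and members by up to 0.94. These largest gaps are of different genes, and the part of erythroid cells in the gaps of members was not tested.

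No member passed the adjusted test between 4T1-TB and G-CSF cells. In limma on all 6 arrays 0 members were higher and 0 lower (0% of all probes each way). The 2 groups did not overlap, with 4T1-TB higher, on 14 members (15.2% of all probes) and, with 4T1-TB lower, on 8 (15.2%). At an unadjusted p under 0.05, 5 members were higher in 4T1-TB than in G-CSF cells (1.82% of all probes) and 3 were lower (1.3%). The 5 included Rpl38 probe 1 (0.35), Rpl9 (0.46), Rps4x (1.16) and Rps12 probe 2 (0.72). With G-CSF replicate 1 left out, 9 were higher (1.22% of all probes) and 11 lower (1.67%) after adjustment, and with G-CSF replicate 2 left out, 7 were higher (0.21%) and 1 lower (0.0287%).

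Some paralogs and special forms were also read. Rpl3l, which replaces Rpl3 in mouse muscle, read 11.61 and 10.94 in G-CSF cells, 10.70 and 10.68 in 4T1-TB cells, and 10.30 and 10.37 in WT cells. All treated arrays were above WT, with log2 fold changes of 0.94 (adjusted p = 0.083) and 0.35 (adjusted p = 0.58). Rpl3 itself read 9.84 and 8.38 in G-CSF cells, 9.80 and 9.42 in 4T1-TB cells, and 8.88 and 8.98 in WT cells, and did not pass (adjusted p = 0.94 and 0.65).

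The other members fixed by name were dim. Rpl22, needed for T cell development in mouse, was detected on 2 arrays and its paralog Rpl22l1 on none. Rplp0, the base of the stalk, was detected on both G-CSF and both 4T1-TB arrays in its probe 2 and on neither WT array, at least 1.04-fold and 1.10-fold above WT (adjusted p = 0.56 and 0.28), neither past the threshold. Rpsa, also known as the laminin receptor, was detected on 1 array, and Rpl13a, often used as a reference gene, on 3. Rps19bp1 and both probes of Rps23rg1 were detected on none, and Rpl7l1 probe 1 gave log2 fold changes of 0.13 and −0.15. 6 members, among them single probes of Rpl4, Rpl31 and Rpl36a, were undetected on both WT arrays and detected on all 4 treated arrays. The reverse for 4T1-TB, detected on both WT arrays and undetected on both 4T1-TB arrays, held for 2, Rps2 probe 2 and Rps7. These patterns were not counted over all probes, so they cannot be read as a trait of the members.

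**Figure D5:**
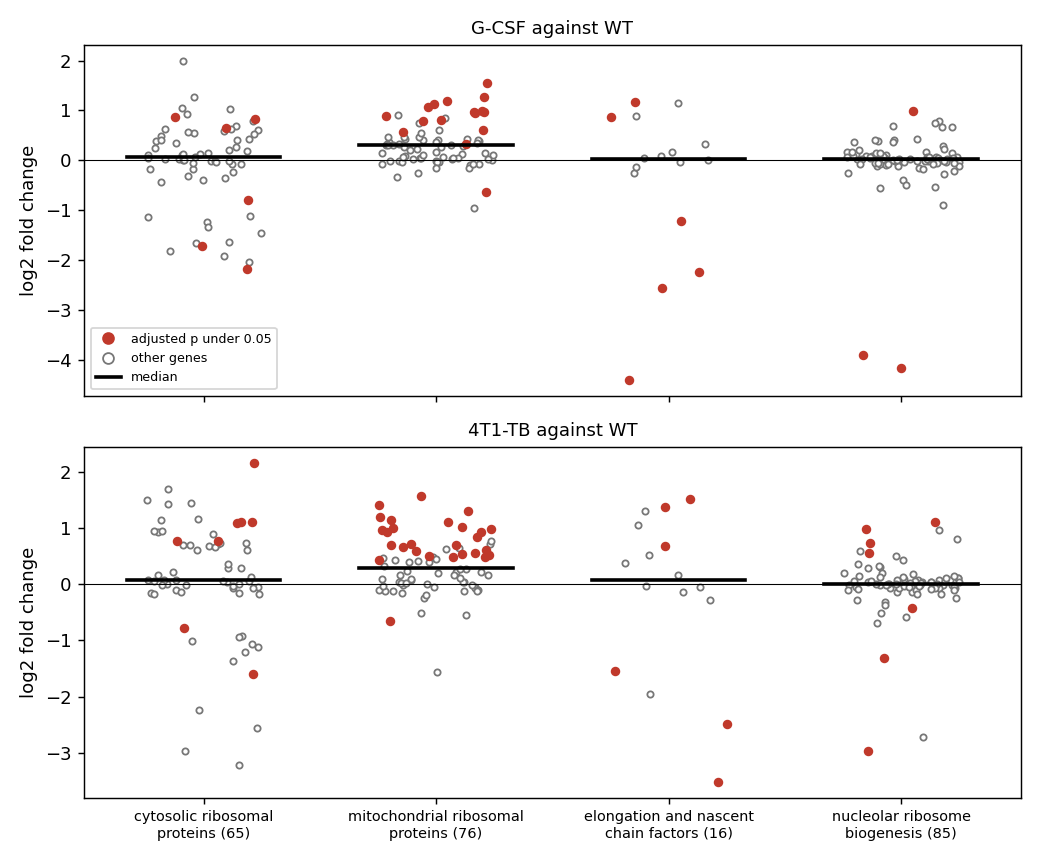
Log2 fold change (vertical axis) against WT in G-CSF cells (top) and 4T1-TB cells (bottom), 1 probe per gene, for 65 cytosolic ribosomal proteins, 76 mitochondrial ribosomal proteins, 16 elongation and nascent chain factors and 85 nucleolar biogenesis genes. Red points passed at an adjusted p under 0.05 and bars mark the medians, which are 0.06, 0.30, 0.02 and 0.03 in G-CSF cells and 0.07, 0.29, 0.07 and 0.01 in 4T1-TB cells.

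With 1 probe per gene, 3 of 65 cytosolic ribosomal protein genes were higher and 3 lower in G-CSF cells, against 4.12% and 2.85% of all 19057 named genes, and 6 were higher and 2 lower in 4T1-TB cells, against 5.41% and 3.17%. The same shares are the background of the lists that follow, and most of the calls in these lists were lost with either centring. Of the 76 mitochondrial ribosomal protein genes, which build the separate ribosome of the mitochondrion, 15 were higher and 1 lower in G-CSF cells, and 26 higher and 1 lower in 4T1-TB cells. Without WT replicate 1, 0 and 2 of them were higher in G-CSF and in 4T1-TB cells, and without WT replicate 2, 0 and 3. With median centring, 1 was higher and 0 lower in each comparison, and with 75th-percentile centring 2 were higher in G-CSF cells and 1 in 4T1-TB cells. With neqc background correction, 15 were higher and 1 lower in G-CSF cells, and 25 higher and 1 lower in 4T1-TB cells. Mrps34, of the small mitochondrial subunit, read 8.89 and 8.72 in G-CSF cells, 8.60 or more in 4T1-TB cells, and 7.63 and 7.58 in WT cells, with a log2 fold change of 1.20 in both (adjusted p = 0.0096 and 0.0094, or 0.068 and 0.097 with median centring). Mrpl46, of the large mitochondrial subunit, was undetected on both WT arrays. G-CSF cells exceeded WT at least 1.60-fold (adjusted p = 0.0077), and 4T1-TB cells exceeded it at least 1.97-fold (adjusted p = 0.0028). Mrpl4, the only lower one, was detected on both WT arrays alone and was at least 1.49-fold and 1.48-fold lower in G-CSF and in 4T1-TB cells.

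Of 16 elongation and nascent chain factors, 2 were higher and 4 lower in G-CSF cells, and 3 higher and 3 lower in 4T1-TB cells, and none was called in either comparison with either centring. Eef2, which moves the ribosome along the mRNA, read 6.94 and 7.03 in G-CSF cells, 6.97 and 8.78 in 4T1-TB cells, and 11.46 and 11.31 in WT cells, with log2 fold changes of −4.40 (adjusted p = 0.012) and −3.51 (adjusted p = 0.024). Pabpc1, the poly(A)-binding protein, was undetected on both G-CSF arrays and at least 5.74-fold lower there (adjusted p = 0.00049), and 4T1-TB cells gave −2.49 on the log2 scale (adjusted p = 0.00048). Eef1b2 and Eef1d, exchange factors of elongation factor 1, rose by 0.87 and 1.37 and by 1.16 and 1.51.

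Of 85 nucleolar biogenesis genes, 1 was higher and 2 lower in G-CSF cells, and 4 higher and 3 lower in 4T1-TB cells. With median centring 1 was higher in G-CSF cells and 0 were called in 4T1-TB cells, and with 75th-percentile centring 1 was higher in each. Npm1, a nucleolar chaperone, read 9.33 and 8.52 in G-CSF cells, 9.38 and 11.35 in 4T1-TB cells, and 12.89 and 13.29 in WT cells, and fell by 4.16 in G-CSF cells (adjusted p = 0.027), with −2.72 in 4T1-TB cells (adjusted p = 0.093). Brix1, a large-subunit assembly factor, had log2 fold changes of −3.90 and −2.97, and Imp4, of the small-subunit processome, rose by 0.99 and 1.11. The directions of the translation and biogenesis genes named in these lists held with both centrings, but their calls did not. With median centring the adjusted p in G-CSF and in 4T1-TB cells was 0.11 and 0.20 for Eef2, 0.077 and 0.099 for Pabpc1, 0.10 and 0.23 for Brix1, and 0.10 and 0.13 for Imp4, and it was 0.13 for Npm1 in G-CSF cells.

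No gene of the next lists, nor of the Mdm2 and p53 response, was called with either centring. Of 32 genes of RNA polymerase I and 5S transcription, 1 was higher and 0 lower in G-CSF cells and 2 were higher and 1 lower in 4T1-TB cells. Of 30 genes of mTORC1, S6 kinase and tract-mRNA control, 2 were higher and 2 lower in G-CSF cells and 3 higher and 3 lower in 4T1-TB cells, with log2 fold changes of 1.23 (adjusted p = 0.015) and 1.26 (adjusted p = 0.013) for Tsc2, an inhibitor of the pathway. Mtor, the kinase itself, was undetected on both WT arrays and at least 1.68-fold and 1.51-fold higher in G-CSF and in 4T1-TB cells (adjusted p = 0.011 and 0.019).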

How the data were processed

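RNA was measured on 6 Illumina mouse arrays, 2 per group. The authors deposited intensities per probe exported from GenomeStudio, with a detection p-value for each deposited intensity, and normalized log2 values made by the authors by quantile normalization. The methods name background subtraction, but no deposited intensity lay at or below 0. 2 intensity columns without a replicate number were given to the remaining sample of their group, and log2 values redone from the intensities differed from the deposited ones by at most 4.99e-09. The number of arrays limits the precision.

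The fit used limma 3.58.1 (R 4.3.3) on the deposited log2 values of all 45281 probes (group means, 3 contrasts, 3 residual and 2.59 prior degrees of freedom), with Benjamini-Hochberg adjustment over all probes and a threshold of 0.05. SE values are those of the fit. Where a group was undetected on both arrays, a bound was given, from the higher of the probe's own value and the lowest detected value of each array. Fits were tested on simulated data. Lists used 1 probe per gene, that with the highest mean log2 value. Probes of a gene are numbered in the order of their identifiers. Probe genes came from the array annotation, in which 34885 probes carry 1 symbol, 18 several and 10378 none. The members and lists were chosen with earlier results of these data known. Genes were named by rule: the 8 smallest adjusted p-values per direction, a set of members fixed by name, members whose probes disagreed, and up to 4 genes per list. Rps26, Mrpl4, the members with wide G-CSF gaps and those of the 4-array fit were named after their values were seen. Rpl5, Rpl11, Rps27, Rps27a, Rpl7, Rpl10 and Rpl10l were not analysed here. Alternatives were 2 centrings, neqc (offset 16), a detection filter, a replicate block, a trended robust prior, 4-array fits, 1 probe per gene and leaving out each array.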

Additional observations from a re-analysis of the deposited data

How the results depend on the processing

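With 2 arrays a group, every count of calls depended on single arrays. No member called on the deposited values kept its call with either centring, so calls that remain there are of other probes. None of the 4 members higher in G-CSF cells kept its call with neqc. Members higher in G-CSF cells (4) numbered 1 with median centring, 75th-percentile centring, neqc or the 4 arrays compared alone, and from 0 to 27 when single arrays were left out. Members lower in G-CSF cells (3) numbered 0 with either centring and 6 with the detection filter, and from 0 to 20 with single arrays left out. Members past the fold rule in G-CSF cells (6) numbered 20 with either centring and 10 with the trended robust prior, and from 2 to 28 with single arrays left out. Members higher in 4T1-TB cells (9) numbered 0 with either centring, 15 with the detection filter or the trended robust prior and 30 with the 4 arrays alone, and from 1 to 30 with single arrays left out. Members lower in 4T1-TB cells (4) numbered 0 with either centring, 1 with neqc, 16 with the 4 arrays alone and 2 with 1 probe per gene, and from 0 to 16 with single arrays left out. Members past the fold rule in 4T1-TB cells (10) numbered 20 with either centring and 23 with the 4 arrays alone, and from 5 to 23 with single arrays left out. Between 4T1-TB and G-CSF cells the counts of 0 became up to 9 higher and 11 lower with single arrays left out, and under the fold rule 1 with the trended robust prior and 0 to 12 with single arrays left out. The median log2 fold change in 4T1-TB cells (0.07) was 0.32 with the detection filter. Medians ranged from 0.03 to 0.10 in G-CSF cells, from 0.06 to 0.09 in 4T1-TB cells and from 0.01 to 0.09 for 4T1-TB against G-CSF cells with single arrays left out.

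The labels do not say whether a replicate number marks a shared experiment. Deviations of same-numbered arrays correlated at 0.02 for G-CSF and WT, −0.02 for 4T1-TB and WT and 0.24 for 4T1-TB and G-CSF. With the number as a block, 0 members were higher and 3 lower in G-CSF cells, and 8 higher and 4 lower in 4T1-TB cells.

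Directions turned with median and 75th-percentile centring, in that order, for Rpl35 (0.15 and 0.15), Rps3 probe 2 (0.0089 and 0.0016), Rps2 probe 1 (1.10 and 1.10) and Rpl26 (0.75 and 0.74) in G-CSF cells, and for Rps16 (0.14 and 0.13), Rps3 probe 1 (0.0073 and 0.0035), Rps2 probe 1 (1.07 and 1.07), Rpl26 (0.51 and 0.51) and Rps19 probe 2 (0.23 and 0.23) in 4T1-TB cells. With single arrays left out, fold changes in G-CSF cells ranged from −2.37 to 0.10 for Rpl35, from −2.78 to 0.10 for Rps16, from −4.84 to 1.01 for Rps9 probe 1, from −4.33 to 0.21 for Rps9 probe 2, from −2.76 to 0.51 for Rps6 and from −4.40 to 0.34 for Rplp1, the highest being without G-CSF replicate 1. They ranged from −0.029 to 1.08 for Rps4x and from −0.033 to 0.86 for Rpl31 probe 3, the lowest being without G-CSF replicate 2. The causes were not tested. Values near the detection limit carry little information, and 23 members were undetected throughout.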
